A study of Arabidopsis thaliana with 10 samples.

Results

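Chloroplasts make part of their own proteins, and the RNAs for these must be spliced, edited, stabilised and translated inside the organelle by proteins that the nucleus encodes. Transcript ratios of 8 such genes were followed in leaves of Arabidopsis thaliana (Col-0) through 2 opposite changes of light quality. The genes were taken by name: mTERF9 (AT5G55580), OTP70 (AT4G25270), CRR21 (AT5G55740), OTP85 (AT2G02980), AT3G22690, AT1G01080, PAC (AT2G48120) and ATAB2 (AT3G08010). Each had exactly 1 spot paired with it alone, so the 8 genes are 8 of the 645 spots with a single gene and of 3262 spots in all. A further 2 spots list one of these genes beside another gene and were left out.

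All plants grew on soil for 21 days in white light, in short days (8 h light, 16 h dark). In one arm they were then kept for 3 days under a lamp favouring photosystem I (PSI light) and moved for 30 min, 2 h, 8 h or 48 h under one favouring photosystem II (PSII light). The other arm ran from PSII light to PSI light with the same times, and each arm has 1 more column for plants in white light. Each of the 10 columns holds 1 ratio per spot, and every material was a pool of 250 to 500 plants. The design text names 3 independent experiments per time point, but the table gives no spread between them, so no value below has an error and no difference was tested.

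The sample labels name thylakoid membranes as the source, whereas the protocols describe total RNA from leaves. A ratio holds no level, so this could not be checked on marker genes. In such bulk RNA, fewer cells of a type and less RNA per cell cannot be told apart. The condition named in a label is read as the numerator and the plants harvested before the move as the denominator. This reading is likely from the design text but is not stated, and the titles, of the form PSI_vs_PSII, could be read the other way. If it is wrong, every "above" and "below" turns round. What the white light plants were compared with is not stated. Correlations between columns, over all spots, went down to −0.299. Among the columns of the arm that moved to PSI light, which were read alike, the 48 h column correlated at −0.29 with 30 min and at −0.14 with 8 h, the 2 h column at −0.19 with 8 h, and 2 h with 48 h at 0.13. The 2 h column also stood at 0.03 with 30 min and at −0.15 with white light, and the 48 h column at −0.002 with white light. Whether either column is inverted was not tested. Every sign at 2 h and 48 h of PSI light turns if those columns alone are inverted, and the results that rest on them are also given with both inverted. Medians of the columns lay between 0.588 and 1.26, and between 98 and 261 spots per column were at exactly 0 and treated as having no value.

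Unequal excitation of the photosystems makes the electron carriers that link them more oxidised or more reduced, which is known to act as a signal on genes in the chloroplast and in the nucleus. Pentatricopeptide repeat (PPR) proteins each recognise particular organelle RNAs and direct their splicing, editing or stability. The mTERF proteins are a further family of nucleic acid-binding proteins in chloroplasts and mitochondria. Of the 8 genes, mTERF9 is known to promote the assembly and function of chloroplast ribosomes, and OTP70 is a PPR protein needed to splice the transcript of rpoC1, a subunit of the plastid's own RNA polymerase. CRR21 and OTP85 are PPR proteins that edit the transcript of ndhD, a subunit of the chloroplast NDH complex. PAC, named after the pale cress mutant, is needed for plastid RNA and ribosome maturation, and ATAB2 is an RNA-binding protein involved in translating photosystem mRNAs. AT3G22690 is described as a PPR protein and AT1G01080 as an RNA-binding protein.

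The 8 genes did not move as a block. mTERF9 was 2-fold or more above the column median in 5 of 10 columns, 4 of them in the arm that moved to PSII light. OTP70 was above the median in all 5 columns of that arm, with smaller values than mTERF9. How many of all spots share this sign pattern is not given here. Over all spots, those 5 columns correlated with each other at 0.53 to 0.82. CRR21, OTP85, PAC and ATAB2 stayed under 2-fold relative to the column median in every column where they had a value. AT3G22690 had its highest value at 30 min and its lowest at 48 h of PSI light as read here, and AT1G01080 had the lowest ratios of the 8 genes, at 2 h in PSII light and at 8 h in PSI light.

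Counted over all columns, the 8 genes had 76 values above 0 of 80 possible, and 4 were listed at 0. Relative to the column median, 8 of the 76 (10.5%) were 2-fold or more above and 4 (5.26%) were 2-fold or more below. Over all spots and columns these shares were 5.33% and 2.97%. The 8 genes were chosen with earlier results of these data known, so the comparison is a description only. Of the 8 values above, 5 belonged to mTERF9, 2 to OTP70 and 1 to AT3G22690. Of the 4 values below, 2 belonged to AT1G01080, 1 to OTP70 and 1 to AT3G22690. As deposited, without division by the column median, 2 values (2.63%) were 2-fold or more higher and 7 (9.21%) lower, against 3.73% and 8.66% of the values of all spots, so the prevailing direction of the counts depends on where the columns are centred.

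**Figure D1:**
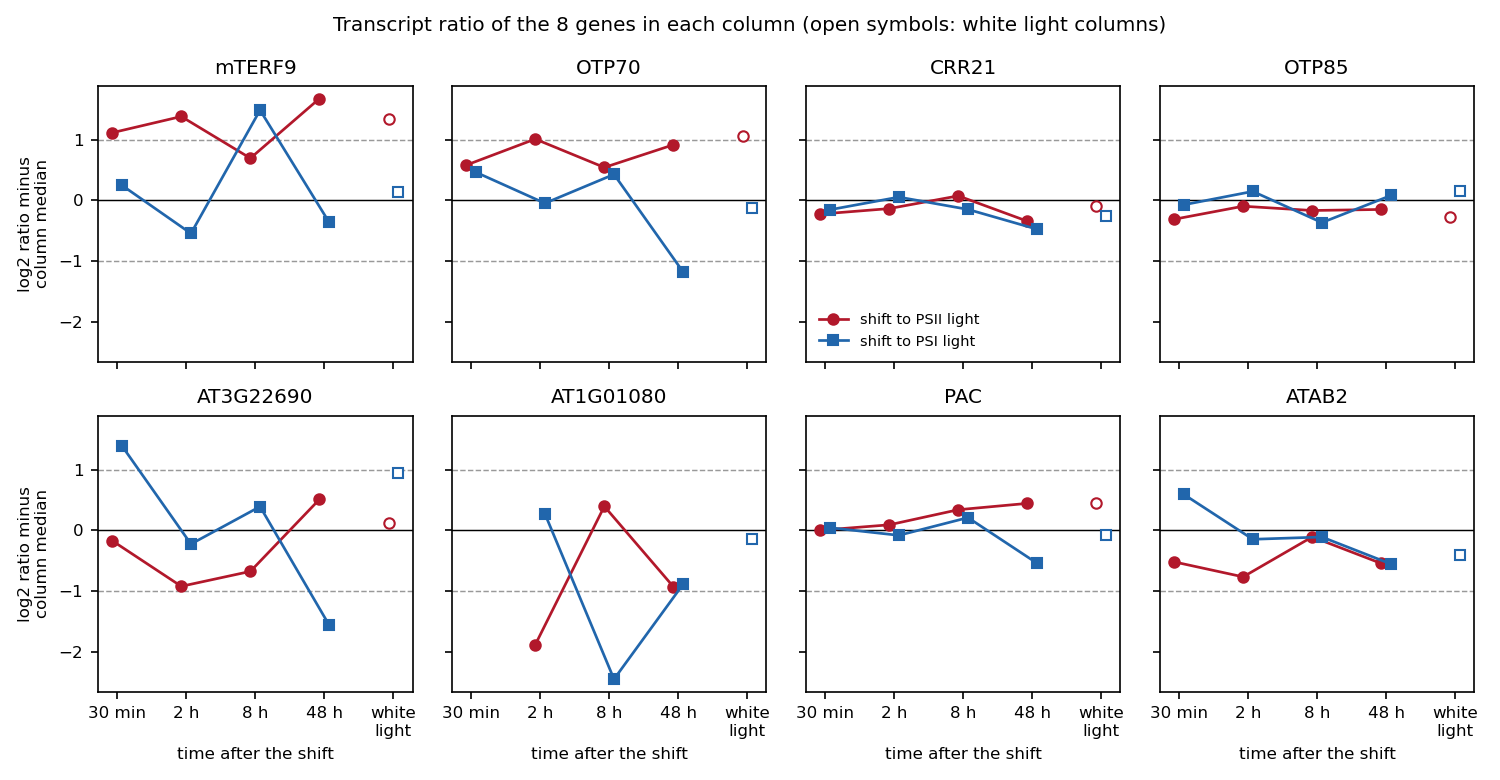
Log2 ratio minus the column median (vertical axis) of each of the 8 genes by time after the shift (horizontal axis), with the shift to PSII light as circles, the shift to PSI light as squares, the white light columns as open symbols and 2-fold as dashed lines. Each point is 1 deposited value without error, and a missing point is a spot listed at 0. mTERF9 lies above the upper dashed line at 30 min, 2 h and 48 h of PSII light and at 8 h of PSI light, while CRR21, OTP85, PAC and ATAB2 stay between the dashed lines.

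mTERF9 had deposited ratios of 1.84, 2.43, 1.87 and 1.88 at 30 min, 2 h, 8 h and 48 h of PSII light, and 2.02 in the white light column of that arm. In the arm that moved to PSI light, its ratios were 0.861, 0.768, 1.93 and 0.981 from 30 min to 48 h, and 0.976 in white light. All 5 ratios of the PSII light arm were well above 1, and in the PSI light arm the 8 h ratio alone was. Relative to the column median, the log2 values of mTERF9 were 1.11, 1.38, 0.69 and 1.68 in PSII light and 1.34 in white light. In PSI light they were 0.25, −0.54, 1.49 and −0.36, with 0.13 in white light. The values at 2 h and 48 h of PSI light become positive if those columns alone are inverted, and mTERF9 then lies above the median in all 10 columns.

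In PSII light the share of spots 2-fold or more above the median was 3.77% after 30 min, 6.49% after 2 h, 2.16% after 8 h and 13.6% after 48 h. It was 8.44% in the white light column of that arm and 7.86% at 8 h of PSI light. mTERF9 belonged to these spots at 30 min, 2 h, 48 h, in white light and at 8 h of PSI light, but not at 8 h of PSII light. As deposited, mTERF9 was past 2-fold in 2 columns, 2 h and white light of the PSII light arm. In PSII light it was higher than 97.4% of the other spots after 30 min, 97.1% after 2 h and 95.3% after 8 h, and it stood at the 95th percentile after 48 h. Its log2 value was 0.98 higher at 48 h than at 8 h, and that percentile of all spots was 1.68 at 48 h and 0.68 at 8 h. At least 4 of the 5 columns of the PSII light arm were 2-fold or more above the median for 86 of 2888 spots, or 2.98%. These columns may share 1 reference sample, and its part in this pattern was not tested.

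OTP70 had deposited ratios of 1.27, 1.88, 1.69 and 1.11 from 30 min to 48 h of PSII light and 1.67 in white light. The ratios in the PSI light arm were 0.999, 1.08, 0.925 and 0.557, with 0.811 in white light. Every time point of PSII light lay above every time point of PSI light, as deposited and relative to the median. Of 2840 spots with values at all 8 time points, 7.5% had this order relative to the median and 6.34% as deposited. The centred log2 values of OTP70 were 0.58, 1.01, 0.54 and 0.92 in PSII light and 1.07 in white light, and in PSI light 0.46, −0.05, 0.43 and −1.18, with −0.13 in white light. It passed 2-fold upward by a small margin, at 2.01 times the median at 2 h and 2.09 times in white light, and neither was past 2-fold as deposited. After quantile normalization, or with a pseudocount added, OTP70 had 0 values past 2-fold in either direction.

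OTP70 was at 0.442 times the median at 48 h of PSI light. In that column 7.3% of all spots were 2-fold or more below the median, the highest share of any column in that direction. As deposited, the log2 value of OTP70 there was −0.84, which is under 2-fold. If the 48 h column alone is inverted, OTP70 lies 2-fold above the median there, and the order of the shifts no longer holds.

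CRR21 and OTP85, the editing factors of the ndhD transcript, had the narrowest ranges of the 6 genes with a value in all 10 columns, as read here. The log2 values of CRR21 relative to the median were −0.23, −0.14, 0.07 and −0.34 in PSII light and −0.09 in white light. In PSI light they were −0.15, 0.05, −0.15 and −0.47, with −0.26 in white light, and the −0.47 at 48 h turns with its column. Its highest and lowest values were 0.55 apart, a range narrower than that of all but 3.88% of the 2784 spots with a value in all columns. With the PSI light columns for 2 h and for 48 h inverted, the range of CRR21 becomes 0.82, wider than that of PAC at 0.62.

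OTP85 had log2 values of −0.31, −0.10, −0.17 and −0.15 in PSII light and −0.27 in white light, then −0.07, 0.15, −0.37 and 0.08 in PSI light, with 0.16 in white light. Its range was 0.53, and 3.02% of spots had a narrower one. Of all spots with a value in each column, 64.6% stayed under 2-fold throughout, so remaining under 2-fold was common. As deposited, CRR21 had a ratio of 0.464 at 48 h of PSII light, past 2-fold, as were 34.9% of all spots in that column, where the median ratio was 0.588. The profiles of OTP85 and CRR21 had a Pearson's r of −0.14 over 10 columns. In the TAIR10.1 gene table CRR21 and mTERF9 lie on the same chromosome with 16 genes between them.

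**Figure D2:**
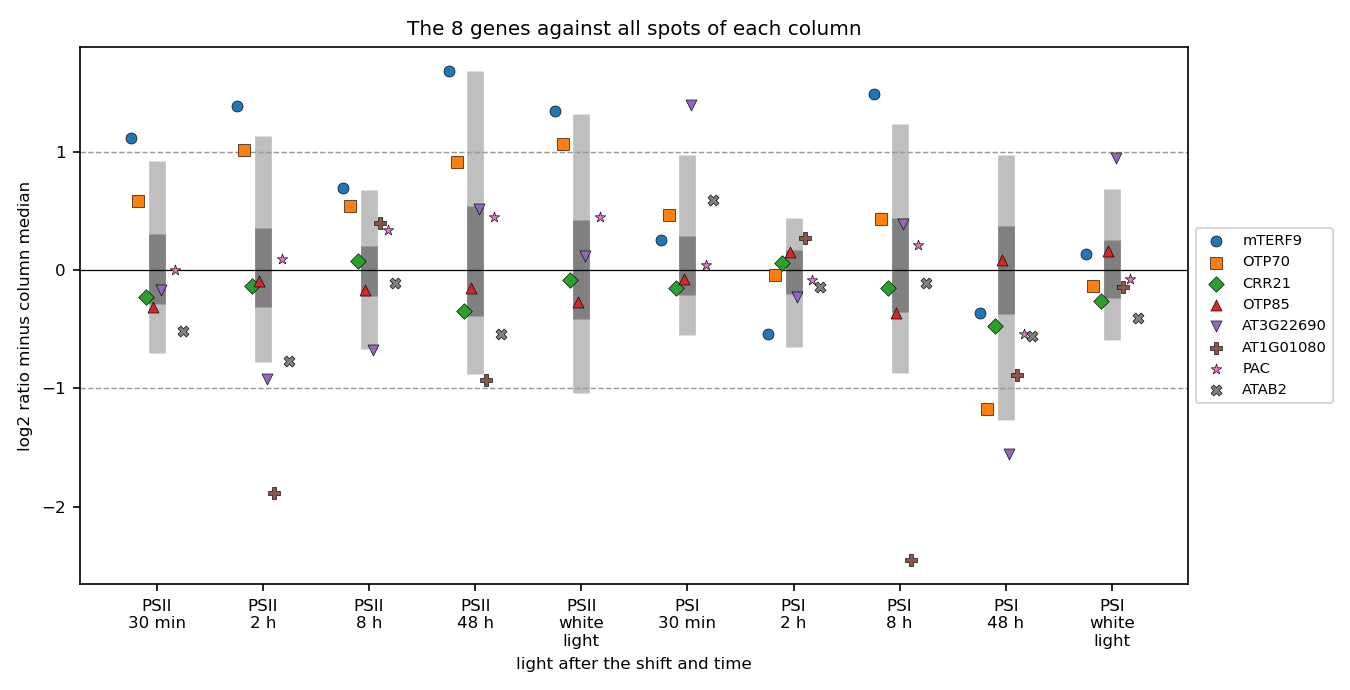
Log2 ratio minus the column median (vertical axis) of the 8 genes as symbols in each of the 10 columns (horizontal axis), over grey bars that span the 5th to 95th percentile (light) and the middle quartiles (dark) of all spots. Dashed lines mark 2-fold. mTERF9 sits at or above the top of the light bar in every column of the PSII light arm, and AT1G01080 sits far below the bar at 2 h in PSII light and at 8 h in PSI light.

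AT3G22690, described as a PPR protein, had the widest course among the genes measured in all 10 columns, with deposited ratios of 0.758, 0.493, 0.725 and 0.838 in PSII light and 0.863 in white light. In PSI light its ratios were 1.90, 0.958, 0.902 and 0.428, with 1.71 in white light. The ratio was thus highest 30 min after the shift to PSI light and lowest after 48 h, as read here. Relative to the median, its log2 values were −0.17, −0.92, −0.68 and 0.51 in PSII light, with 0.12 in white light, and 1.39, −0.23, 0.39 and −1.56 in PSI light, with 0.94 in white light.

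At 30 min of PSI light AT3G22690 was higher than 98.7% of the other spots. In that column 4.66% of spots were 2-fold or more above the median. At 48 h it was at 0.339 times the median, lower than all but 3.32% of spots. As deposited, the value at 30 min of PSI light was under 2-fold, and those at 2 h in PSII light and at 48 h in PSI light were past 2-fold downward. The margin at 2 h was small (log2 −1.02). Over all spots and columns 8.66% of values were 2-fold or more lower as deposited, and the share in these columns is not given here. The centred mean of AT3G22690 over the 4 time points of PSI light was near 0 (0.00033), so the mean hides values on opposite sides of the median. The difference between 48 h and 30 min of PSI light was −2.95 on the log2 scale, with values of −1.56 and 1.39, and 1.63% of spots had a lower one. Both columns belong to the same shift, so the reference cancels from this difference if it was the same sample. With the 48 h column inverted, the value at 48 h becomes 1.56, the highest of the gene, and the difference becomes 0.17.

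AT1G01080, described as an RNA-binding protein, had no value in 3 columns, where it was listed at 0: 30 min of PSII light, the white light column of that arm, and 30 min of PSI light. Its remaining deposited ratios were 0.253 at 2 h, 1.52 at 8 h and 0.309 at 48 h of PSII light. In PSI light they were 1.35 at 2 h, 0.126 at 8 h and 0.682 at 48 h, with 0.803 in white light. Relative to the median the log2 values were −1.88, 0.40 and −0.93 in PSII light, 0.27, −2.45 and −0.89 in PSI light, and −0.15 in white light.

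The gene thus lay far below the median at 2 h of PSII light, where 2.73% of spots were 2-fold or more below, and at 8 h of PSI light, where 3.61% were. At 2 h of PSII light 0.0642% of the other spots were lower, and at 8 h of PSI light 0.161% were. Between 2 h and 8 h it moved in opposite directions in the arms: the difference 8 h minus 2 h was 2.28 on the log2 scale in PSII light and −2.72 in PSI light. Of all spots, 99.97% had a smaller difference in PSII light and 0.195% had a lower one in PSI light. With the 2 h column of PSI light inverted, the low value at 8 h stays as it is, 0.27 becomes −0.27 and the difference becomes −2.18. The value of −0.89 at 48 h becomes 0.89 if that column is inverted. Whether the zeros stand for a signal under detection or for a failed spot is not stated.

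PAC stayed close to the median. Its log2 values were 0.00, 0.09, 0.34 and 0.44 in PSII light and 0.44 in white light, and 0.04, −0.08, 0.21 and −0.54 in PSI light, with −0.08 in white light. PAC lay above the median in all 5 columns of the PSII light arm, but at 30 min it all but equalled it (0.0015, percentile 50.1). How many of all spots lay above in all these columns is not given here. The lowest value of PAC came at 48 h of PSI light, at 0.687 times the median. With that column inverted the value becomes 0.54, the highest of PAC, and with the 2 h column inverted too PAC lies above the median in 9 of 10 columns. As deposited, the mean of PAC over the time points of PSII light was −0.0015, so its place above the median there comes with the centring.

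ATAB2 was below the median at all 4 time points of PSII light, with log2 values of −0.52, −0.77, −0.11 and −0.54, and was listed at 0 in the white light column of that arm. In PSI light it had 0.59, −0.15, −0.11 and −0.55, with −0.40 in white light, and the values at 2 h and 48 h become 0.15 and 0.55 with their columns inverted. Below the median at all 4 time points of PSII light were 25% of the 2950 spots with values there, so this sign pattern was common. The mean of −0.48 was lower than that of all but 8.75% of these spots. The deposited ratio of ATAB2 was highest at 30 min of PSI light, at 1.09, and lowest at 48 h of PSII light, at 0.403. The lowest ratio is past 2-fold as deposited, as were 34.9% of all spots in that column.

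At matched times the arms differed by 2-fold or more at least once for mTERF9, OTP70, AT3G22690, AT1G01080 and ATAB2, as read here. The share of all spots that did so was not counted, so this does not set these genes apart. At 48 h such differences were not rare, since the 0.99 of PAC was higher than that of 79.4% of 2963 spots. As read here, each arm is measured against its own plants before the move. The differences therefore compare ratios with unlike references, not transcript amounts in PSII light and PSI light. On the centred log2 scale, mTERF9 in PSII light minus PSI light gave 0.86 after 30 min, 1.93 after 2 h, −0.79 after 8 h and 2.04 after 48 h. Its ratio was therefore higher in the PSII light arm at 3 of 4 times and lower at 8 h. With the PSI light columns inverted, the differences at 2 h and 48 h become 0.84 and 1.32, still above 0. OTP70 gave 0.12, 1.06, 0.11 and 2.09, above 0 at all 4 times, as did 11.1% of 2840 spots. With the columns inverted, its values at 2 h and 48 h become 0.96 and −0.26. For AT3G22690 the difference was −1.56 after 30 min, −0.70 after 2 h, −1.07 after 8 h and 2.07 after 48 h. At 30 min 0.985% of 3047 spots had a lower difference. The sign at 48 h rests on the direction of the PSI light column: inverted, the differences at 2 h and 48 h become −1.15 and −1.05, and all 4 are then below 0.

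AT1G01080 gave −2.16 at 2 h, 2.85 at 8 h and −0.04 at 48 h, with no value at 30 min. Inverted, its differences at 2 h and 48 h become −1.61 and −1.82. ATAB2 gave −1.11 at 30 min and −0.62 at 2 h, and 0.00 and 0.01 at 8 h and 48 h. With the columns inverted it becomes −0.91 at 2 h and −1.10 at 48 h. PAC reached 0.99 at 48 h after values between −0.04 and 0.17 before, and the 0.99 becomes −0.10 with the column inverted. CRR21 and OTP85 stayed between −0.24 and 0.22 at all 4 times as read here, whereas CRR21 at 48 h becomes −0.82 and OTP85 −0.07 with the column inverted.

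The 48 h differences fell into a wide spread of all spots. A difference of 2.04 for mTERF9, 2.09 for OTP70 and 2.07 for AT3G22690 was higher than that of 91.5%, 91.8% and 91.7% of 2963 spots. These ranks hold for the direction as read, since inverting the column leaves the difference above 0 for mTERF9 but not for OTP70 and AT3G22690. Averaged over the 4 times, 4 of the 7 genes with all values had a higher log2 ratio in the PSII light arm (mTERF9, OTP70, PAC and CRR21). The other 3 (OTP85, AT3G22690 and ATAB2) had a lower one than in the PSI light arm. Each arm has its own reference, so this compares ratios, not transcript amounts. Among all spots 51.4% had a higher mean in the PSII light arm. The count of 4 became 3 as deposited, 3 with the columns inverted and 3 to 6 with a time point left out, the 6 without 30 min. CRR21 counted with a difference of 0.02, which became −0.07 as deposited and −0.19 inverted, and PAC with 0.31, which became 3.36e-05 inverted. The mean difference was 1.01 for mTERF9 and 0.85 for OTP70, higher than for 94.9% and 92.9% of spots. For mTERF9 it was 0.70 without the 2 h columns and 1.61 without the 8 h columns, and for OTP70 it was 0.43 without the 48 h columns. With the columns inverted these means become 0.56 and 0.23. For AT3G22690 the mean difference was −0.31, with 0.10 without the 30 min columns, −1.11 without the 48 h columns and −1.21 with the columns inverted.

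**Figure D3:**
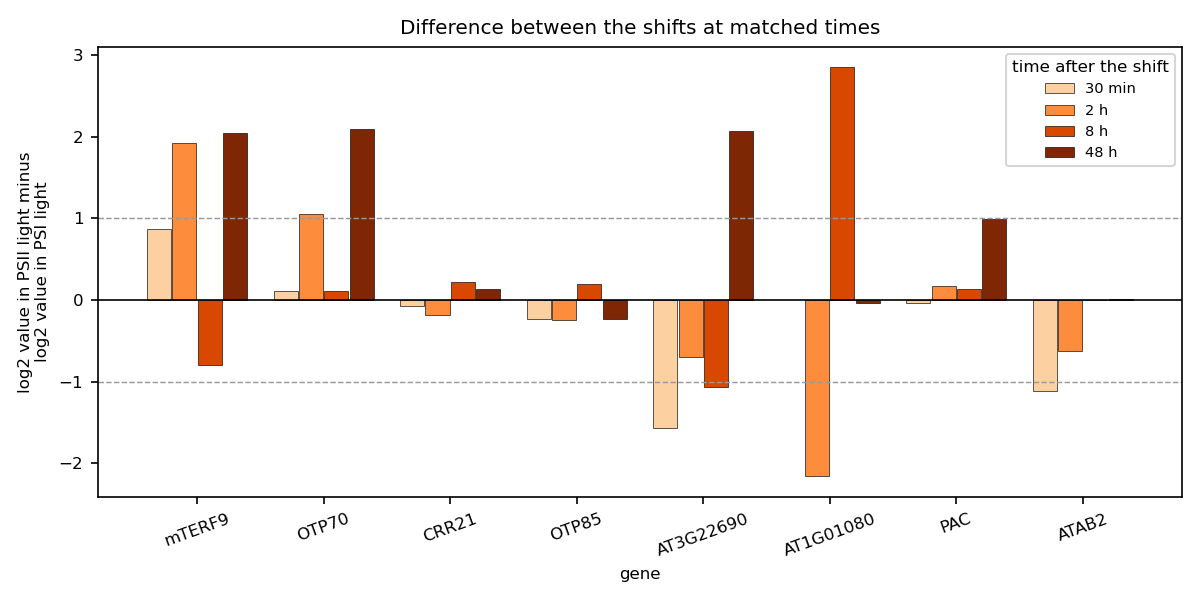
Log2 value in PSII light minus log2 value in PSI light (vertical axis, both relative to the column median) for each gene (horizontal axis), with a bar for each time after the shift. AT1G01080 has no bar at 30 min. The 48 h bars of mTERF9, OTP70 and AT3G22690 reach about the same height (2.04, 2.09 and 2.07), and the bars of AT1G01080 point in opposite directions at 2 h and 8 h. The bars show the direction as read, and with the column inverted the 48 h values become 1.32, −0.26 and −1.05. Each arm has its own reference, so a bar compares ratios, not transcript amounts.

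The median of the 8 genes lay within 0.28 of the column median, which is 0 for all spots by construction, in every column but 1. It was −0.17, −0.12, 0.21 and 0.15 from 30 min to 48 h of PSII light and 0.28 in white light, and 0.25, −0.06, 0.05 and −0.55 in PSI light, with −0.11 in white light. The exception was 48 h of PSI light, where 7 of 8 genes lay below the median and OTP85 lay just above it with 0.08. In that column OTP70 and AT3G22690 were past 2-fold, AT1G01080 had −0.89, ATAB2 −0.55, PAC −0.54, CRR21 −0.47 and mTERF9 −0.36. If the column is inverted, 7 of 8 lie above.

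As read here, mTERF9, OTP70 and PAC had the most similar courses among the 8 genes. Pearson's r over 10 columns was 0.89 for OTP70 with PAC, 0.81 for mTERF9 with OTP70 and 0.76 for mTERF9 with PAC, and Spearman's rho was 0.77, 0.71 and 0.83. mTERF9 and OTP85 ran opposite, with an r of −0.82. With the 2 h and 48 h columns inverted in PSI light, r becomes 0.74 for OTP70 with PAC, 0.49 for mTERF9 with OTP70, 0.32 for mTERF9 with PAC and −0.68 for mTERF9 with OTP85. AT3G22690 with ATAB2 then has the next highest r after OTP70 with PAC, at 0.70 over 9 columns, against 0.60 as read. The time points of an arm may share their reference and each column has its own scaling, so these are descriptions of 10 linked points.

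**Figure D4:**
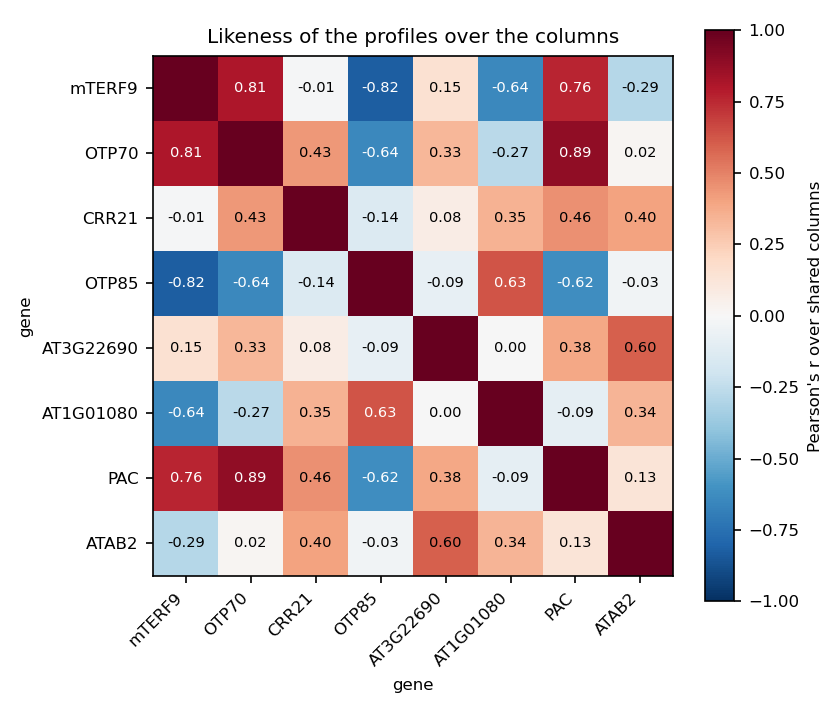
Pearson's r between the centred log2 profiles of each pair of the 8 genes (both axes), over the columns where both have a value, coloured from −1 (blue) to 1 (red). mTERF9, OTP70 and PAC correlate at 0.76 to 0.89 in the direction as read, and OTP85 correlates negatively with each of them.

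Among the other genes with a spot of their own, the profile closest to mTERF9 was that of AT5G06990, with an r of 0.94, followed by AT1G50770, also at 0.94. AT5G06990 had log2 values of 0.76, 1.20, 0.63 and 1.46 in PSII light and 0.64, −0.04, 0.87 and −0.12 in PSI light. For OTP70 the closest was XERICO, a RING-type protein gene linked to abscisic acid, with an r of 0.96 and larger values, such as 2.60 at 48 h of PSII light and −1.67 at 48 h of PSI light. AT4G39690 came next with 0.95. LHB1B2, a light-harvesting protein of photosystem II, was closest to AT3G22690 at 0.91, with 1.20 at 30 min and −3.44 at 48 h of PSI light, followed by AT3G26630 at 0.90.

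OTP85 resembled AT3G61680 and AT3G55070 most, both at 0.92, and CRR21 resembled AT3G24190 at 0.85 and AT5G55220 at 0.83. PAC was closest to AT1G50750 and OTP70, both at 0.89, and ATAB2 to UGT74D1 at 0.86 over 8 columns and AT2G01400 at 0.80 over 9. AT1G01080 had 7 values and was not ranked, since at least 8 shared columns were asked for. Of these 14 pairs, 5 were also among the closest by Spearman's rho, 3 over the 8 time-point columns and 8 with the columns inverted, so the closest names depend on the measure.

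A wider list of 98 nuclear genes for organelle transcription, RNA processing and translation, the 8 genes among them, was searched for further measured genes. The search used these loci and family words in gene names and synonyms, so it can miss other genes of these families among the spots. Within it, only AT4G09040 had a spot of its own beside the 8 genes. AT4G09040 stayed under 2-fold in all 10 columns relative to the median. Its log2 values were −0.41, −0.09, −0.11 and −0.57 in PSII light and −0.91 in white light, and 0.35, 0.51, 0.22 and −0.09 in PSI light, with 0.40 in white light. All time points of PSII light lay below the median. Of PSI light, 30 min and 8 h lay above it, while 0.51 at 2 h and −0.09 at 48 h become −0.51 and 0.09 with their columns inverted. As deposited, AT4G09040 was past 2-fold downward at 48 h of PSII light, with a ratio of 0.396, as were 34.9% of all spots there. It was also past 2-fold downward in the white light column of that arm, with 0.424, as were 13.5% of all spots there.

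The white light column of the PSII light arm placed mTERF9 and OTP70 past 2-fold upward (1.34 and 1.07), and in that of the PSI light arm both lay within 0.13 of the median (0.13 and −0.13). AT3G22690 was the reverse, with 0.12 and 0.94. In the white light column of the PSI light arm 1.87% of spots were 2-fold or more above, and none of the 8 genes was.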

How the data were processed

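The authors deposited linear ratios, 1 per spot and condition. Taking the condition as numerator and a reference as denominator is the reading used here and is not stated. Leaf RNA labelled with 33P was hybridised to nylon filters with 3292 gene-sequence tags, using a primer mix for 1827 genes. The sources used here do not give the background correction, the scaling or how the 3 experiments were merged. The number of arrays limits precision, and how far signals stood above background is not known.

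Ratios were taken to log2, an exact 0 was set to missing, and each column's median over all spots was subtracted (Python 3.11.15, pandas 2.3.3, numpy 2.4.6). Calls mean 2-fold or more. Percentages of lower spots exclude the gene itself. With 1 column per condition no test was run. Genes were named from the platform annotation, updated through the TAIR10.1 gene table, which held 643 of the 645 single genes. The 8 genes and the lists were chosen with earlier results of these data known. Named beside them were the 2 single-gene spots most similar to each by Pearson's r over at least 8 columns, and measured genes of a wider list. Differences between time points of a shift, and matched-time differences, correlations, ranges and profiles with the PSI light columns for 2 h and for 48 h inverted, were added after the values were seen. Alternatives covered scaling, thresholds, zeros, ratio direction, single time points and the measure of likeness. Steps were tested on simulated data. No sequence table was used here, so none is shown.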

Additional observations from a re-analysis of the deposited data

How the results depend on the processing

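Counts past 2-fold depended on the scale. The 8 values above the median became 2 as deposited, 5 with a pseudocount of 0.432 and zeros kept, 1 at 3-fold, 12 at 1.5-fold and 10 with the PSI light columns for 2 h and for 48 h inverted. After quantile normalization the count above was again 8, but with 6 of mTERF9, 2 of AT3G22690 and 0 of OTP70. The 4 values below became 7 as deposited, 2 after quantile normalization, 2 with those columns inverted, 9 at 1.5-fold and 2 at 3-fold. The share above among these calls was 66.7% centred, 22.2% as deposited, 80% after quantile normalization, 55.6% with the pseudocount and 83.3% with the columns inverted. For AT4G09040 the counts of 0 became 1 above after quantile normalization, 2 below as deposited and 1 below at 1.5-fold. Of the 7 genes with values at all time points, 2 had a mean above the median in PSI light. These were mTERF9 and AT3G22690, the latter with 0.00033, at percentile 50.3 of all spots. The count became 1 as deposited and 6 with the columns inverted, and leaving out a time point gave 1 to 5. The share of all spots with such a mean is not given here. Of the 14 closest profile pairs, 5 were shared by Spearman's rho, 7 as deposited, 3 over 8 time-point columns and 8 with the columns inverted. That inversion of the profiles and of the matched differences was chosen after seeing the data. The mean difference of mTERF9 between the shifts stayed between 0.56 and 1.61 in all settings tried, and that of OTP70 between 0.23 and 1.09. No paired analysis was possible because each condition has 1 column. A restriction to genes annotated as plastid was not run, since the tables give no location, and a filter on low levels could not be made from ratios.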
